A study of Drosophila melanogaster with 13 samples.

Results

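The genes Mnt, tlk and CHES-1-like carry many binding regions for the transcription factor CREB and its coactivator CRTC in nuclei of the Drosophila mushroom bodies (MBs). A CREB/CRTC region is a CRTC-binding site with a CREB-binding site no farther than 200 bp away, edge to edge, and each region is assigned to a gene in the deposited table. The 3 genes were chosen because the table assigns 14 or more regions to each. There were 17 for Mnt, 16 for tlk and 14 for CHES-1-like, 47 of 4995 regions in all. Eip75B, with 15 regions, also reaches that number and is set beside the 3 loci as a comparison. Just outside it stands Pdp1, with 13 regions. The loci were chosen by this number of regions, so the number itself and everything from the same peak calling is given here as a description, with no test.

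Chromatin came from MB nuclei of flies labelled as strain CS10, and the methods give w(CS10) as the control line for outcrossing stocks. The flies carried a FLAG-tagged KASH domain in the nuclear membrane, expressed in the MBs by MBp-LexA, and the nuclei were pulled out of head extracts with anti-FLAG. Antibodies against CREB and against CRTC were each used on 3 preparations of flies taken 1 day after spaced training, in which an odour is paired with electric shock in repeated sessions, and on 3 preparations of naive flies. Input DNA of naive flies made up 1 further library. There is 1 site list per protein, which combines replicates. A site therefore has 1 value with no spread between replicates, and spaced-trained and naive flies are not compared. The paper presents these sites as part of its examination of binding after spaced training. Its methods do not name the condition in which the sites were called. The depth behind a site is unknown, and the lists hold 5990 CRTC-binding sites and 7243 CREB-binding sites.

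CREB binds cAMP response elements in DNA, and CRTC enters the nucleus and joins CREB on chromatin when calcium and cAMP signalling rise. In flies this pair is known for its part in long-term olfactory memory, which is stored in the MBs. Mnt is a basic helix-loop-helix zipper protein that pairs with Max and represses genes that Myc activates. The kinase encoded by tlk, Tousled-like kinase, phosphorylates the histone H3-H4 chaperone Asf1 and takes part in chromatin assembly. CHES-1-like is a forkhead-domain protein named after a human checkpoint suppressor. All 3 proteins act in the nucleus.

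Most genes of the table had few regions. Of 2833 genes, 1719 (60.7%) had a single region, the median was 1 region, and 9 genes had 10 or more. Mnt had the most, tlk the next most and CHES-1-like came after Eip75B. Pdp1 (13 regions), bun and tara (11 each), and Eip74EF and ftz-f1 (10 each) complete the 9 genes. Counting only regions at least 100 bp wide left 9 regions at Mnt, 12 at tlk and 8 at CHES-1-like, and 55.8% of the other regions were that wide.

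**Figure D1:**
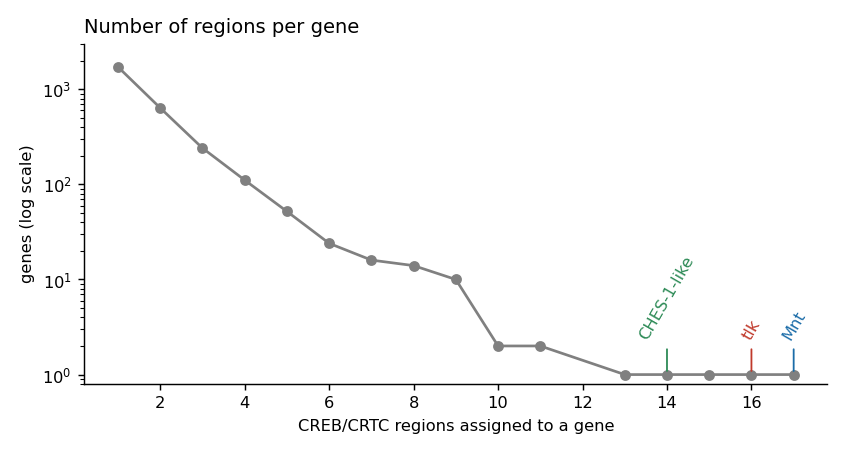
The number of genes (log scale) is plotted against the number of CREB/CRTC regions assigned to a gene, with Mnt, tlk and CHES-1-like marked. Counts drop from 1719 genes with 1 region to 1 gene each at 13, 14, 15, 16 and 17 regions.

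All 3 loci lie on chromosome X (dm3 build, coordinates as the files give them). The regions of Mnt run from 3566211 to 3589731, a span of 23520 bp that held 7.23 regions per 10 kb. Those of CHES-1-like run from 7584900 to 7604148, a span of 19248 bp. The 16 regions of tlk are spread over 60698 bp, from 3614411 to 3675109, and are the loosest of the 3 sets. With the regions of other genes inside the same spans counted in, tlk had 2.97 and CHES-1-like 8.31 regions per 10 kb. The called regions themselves covered 7.56% of the Mnt span, 3.26% of the tlk span and 7.80% of the CHES-1-like span.

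To place these densities, windows of the same length were set at the left edge of every one of the 4995 regions, and the regions of any gene inside were counted. No other window of the Mnt length held as many as the 17 regions there, and the median window held 2. At CHES-1-like the count was 16, again the most of any window of that length, beside a median of 2. At tlk the span held 18 regions, and 10 windows of that length held more, up to 21, beside a median of 4. Each length was fitted to its own locus, and the loci were chosen for many regions, so a high rank was favoured in advance.

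Mnt and tlk are near neighbours. Their regions are separated by a gap of 24680 bp, which holds 1 region of Rala, a Ras-like small GTPase. This Rala region (3612782 to 3612883) had a CRTC score of 12.4 and a CREB score of 11.0, and lay 1528 bp from the first region of tlk. The whole stretch from the first region of Mnt to the last of tlk, 108898 bp, held 36 regions, 33 of them assigned to Mnt or tlk. No other window of that length in the table held as many, and the median window held 6. That length too was fitted to the stretch, so a high rank was favoured in advance. Outside the stretch, the nearest regions were those of CG32792, 125671 bp before Mnt, and of ec, a ubiquitin-protease-like gene, 30463 bp beyond tlk. CHES-1-like stood alone, with the nearest regions of other genes outside its span at ct, which encodes a homeodomain factor, 63704 bp to one side, and at the ribosomal protein gene RpS6, 191109 bp to the other.

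Peak scores are those of the authors' peak caller and serve only to rank sites within a list. The median score was 4.21 in the CRTC list and 3.67 in the CREB list, and a score of 10.9 for CRTC or 10.8 for CREB marked the upper 10% of a list. The CREB score of a region is that of its nearest CREB-binding site.

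At Mnt the regions fell into 9 clusters when neighbours at most 1000 bp apart were joined. Clusters and gaps at each locus were taken over the regions assigned to that gene only, and regions of other genes in between were skipped. The strongest set lies in the left part of the locus, to the right of regions 1 and 2. Region 4, counted from the lowest coordinate (3571603 to 3571761), had a CRTC score of 26.7 and a CREB score of 24.4. Its neighbours on either side, regions 3 and 5, had CRTC scores of 13.1 and 14.6 and CREB scores of 16.4 and 18.6. These 3 regions, spaced 485 and 513 bp apart, are the cluster with the highest scores of the gene. The second peak of the gene is region 16 (3588826 to 3588942), near the right end, with a CRTC score of 19.1 and a CREB score of 18.9. It belongs to the largest cluster of Mnt, the 4 regions 14 to 17. Region 17 had a CRTC score of 9.05 and a CREB score of 12.5. Regions 14 and 15 had CRTC scores of 3.98 and 2.16 and lie 32 bp apart, the closest pair at the 3 loci. Their nearest CREB-binding site is the same one, with a score of 6.34, so that 17 regions of Mnt rest on 16 CREB-binding sites. Region 15 was 20 bp wide, the narrowest of the 47.

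The middle of the Mnt locus had lower CRTC scores. Regions 6, 7 and 8 had CRTC scores of 4.09, 4.35 and 4.83, and regions 12 and 13 had 4.19 and 2.30. Regions 9, 10 and 11 lay between them with CRTC scores of 7.97, 8.31 and 8.59. Of these, region 10 had a higher CREB score, 14.2, against 7.62 at region 9 and 9.09 at region 11. The remaining pair at the left end, regions 1 and 2, had CRTC scores of 9.56 and 4.91. The 2 highest CRTC scores of Mnt, at regions 4 and 16, thus lie toward either end of the locus, with lower CRTC scores at the regions between them.

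At tlk the regions also formed 9 clusters, 5 of them of a single region. The top score of the 3 loci was at such a lone region. Region 7 (3642879 to 3643037) had a CRTC score of 35.5, rank 7 of all CRTC-binding sites, and a CREB score of 27.8, rank 44. It lies 3910 bp from the region before it and 24235 bp from the one after it, the longest gap within any of the 3 loci. Region 3 (3634825 to 3634964) was the next, with a CRTC score of 22.7 and a CREB score of 24.5, and it too stands alone. At the right end of tlk, regions 12 to 16, each at most 1000 bp from the next, form the largest cluster of regions assigned to tlk. Scores there were uneven: the CRTC scores from left to right were 3.96, 3.52, 19.2, 7.87 and 17.9. Region 10 (3669942 to 3670083) completes the group of high scores, with 16.7 for CRTC and 19.3 for CREB.

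Lower scores at tlk were found at regions 12 and 13, given above, at its first region and on either side of region 10. Region 1 had a CRTC score of 3.97 and a CREB score of 1.81, the lowest CREB score of the 47. Regions 8, 9 and 11 had CRTC scores of 7.18, 2.96 and 5.64. Regions 2, 4, 5 and 6 were intermediate, with CRTC scores of 10.7, 12.0, 9.78 and 9.59.

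CHES-1-like had 7 clusters and no single dominant region. Its highest CRTC score was 16.4, at region 14 (7604066 to 7604148), beside 14.9 at region 13. Region 11 (7599189 to 7599335) had the highest CREB score, 25.5, with a CRTC score of 13.9. Regions 3 and 6 had CRTC scores of 13.7 and 13.5. High regions were thus placed along the whole locus, and each cluster but that of region 8 held a CRTC score of 8.61 or more. Regions 5 and 9 had the nearly equal CRTC scores of 8.63 and 8.61. The lowest CRTC scores were 2.49 at region 1, 2.74 at region 2, 2.90 at region 8 and 3.35 at region 4. Regions 7, 10 and 12 had 7.39, 6.92 and 6.46.

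**Figure D2:**
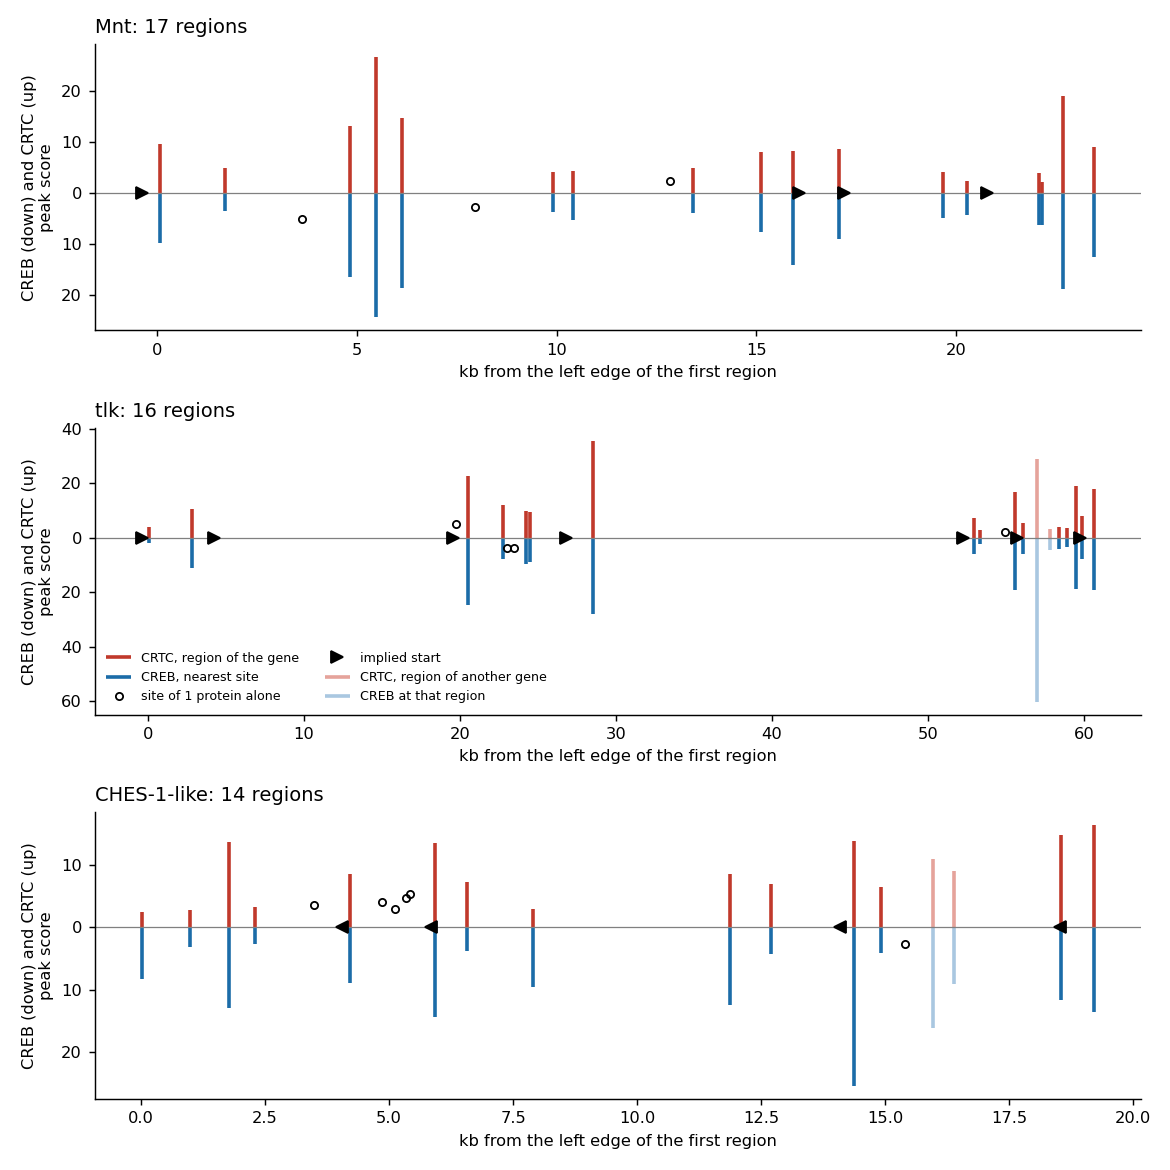
Each panel shows 1 locus, with the distance from the left edge of its first region in kb on the horizontal axis, CRTC peak scores drawn upward and CREB peak scores downward, arrowheads at the start positions worked out from the listed distances, pale lines for regions of other genes and open circles for sites of 1 protein alone. The highest lines of Mnt stand in its left part and near its right end, tlk has a gap of 24235 bp right of its highest region, and the high lines of CHES-1-like are spread along the locus.

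Spacing at the 3 loci was short against all neighbouring regions, but not against neighbours that share a gene. At the 3 loci, gaps were taken between the edges of neighbouring regions of the same gene, skipping any region of another gene. The median gap was 855 bp at Mnt, 1341 bp at tlk and 918 bp at CHES-1-like, and 968 bp over the 44 gaps of the 3 loci. Of these 44 gaps, 22 were at most 1000 bp. Neighbouring regions that share a gene elsewhere in the table had a median gap of 804 bp over 2118 gaps, with 55.6% at most 1000 bp. The median gap was thus longer at each of the 3 loci than between regions of 1 gene elsewhere, by the most at tlk. Without regard to genes, neighbours in the rest of the table were 7644 bp apart at the median, and 26.2% of 4947 gaps were at most 1000 bp.

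Each region has a listed distance to the transcription start site (TSS) of its gene, and several regions of a gene point back to the same position. These positions were worked out on the reading that the distance runs from the edge of the region nearest to the start. With it, 42 of the 46 regions at the 3 loci that do not cover a start (91.3%) shared an implied start with another region, against 6 (13.0%) when distances were taken from region centres. For the other genes the shares were 1956 of 2439 regions (80.2%) and 178 (7.30%). Implied starts were not compared with an annotation of the dm3 build. A start to which no region was assigned leaves no implied position and is not counted.

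For Mnt the distances imply 4 starts, read toward higher coordinates. The first, at 3565834, has 5 regions, all downstream at 377 to 6440 bp, and the 3 strong regions 3 to 5 are among them at 5126, 5769 and 6440 bp. A second, at 3582269, has 5 regions that all lie upstream, at 61 to 6125 bp, with CRTC scores up to 8.31. The third, at 3583397, has only region 11, at 51 bp. The fourth, at 3586985, has 6 regions, 2 upstream and 4 downstream, and region 16 is 1840 bp from it. The high CRTC scores of Mnt were thus all downstream of a start, and none of the 4 regions above 10.9 lay within 500 bp of one.

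The distances at tlk imply 7 starts, also read toward higher coordinates. The starts at 3614040 and 3618669 have 1 region each. The start at 3633930 has regions 3 and 4, downstream at 895 and 3176 bp, and that at 3641195 has 3 regions, among them region 7, 1683 bp downstream. Of the 3 starts at the right end, 3666673 has 2 regions at 599 and 994 bp and CRTC scores up to 7.18. The start at 3670091 has region 10 at 8 bp upstream and region 11 at 319 bp downstream. The last, at 3674175, has 5 regions, 3 upstream and 2 downstream, at 43 to 1326 bp. The pair of highest tlk scores therefore stood away from a start, while regions 10 and 14 stood 8 and 207 bp upstream of one.

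CHES-1-like is read toward lower coordinates, with 4 implied starts. The start at 7603418 is covered by region 13, the only one of the 47 that covers a start, and region 14 lies 648 bp upstream of it. At 7590737, region 6 lies 4 bp upstream, and the start has 3 regions in all. The start at 7588950 has 5 regions, the nearest 87 bp upstream and the farthest 4009 bp downstream. The start at 7598995 has 4 regions, and region 11 is 193 bp upstream. Each of these 4 implied starts thus has a region within 200 bp, but a start with no region would not appear among them.

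As a whole the regions of the 3 loci lay far from starts. At 4 regions of Mnt, 5 of tlk and 4 of CHES-1-like the distance was at most 500 bp, 13 of 47 (27.7%), against 64.1% of the 4948 other regions and 61.3% of the 788 others on chromosome X. One region (2.13%) covered a start, against 21.2% of the others. The median distance was 1246 bp at the 3 loci, made up of 1840 bp at Mnt, 858.5 bp at tlk and 1059.5 bp at CHES-1-like, against 142 bp for the other regions. Upstream and downstream regions were nearly equal in number, 22 and 24. No region of the 3 loci was farther than 6440 bp from a start, while distances reached 51323 bp in the rest of the table. The nearness depended on the limit: at 200 bp, 2 regions of Mnt, 2 of tlk and 4 of CHES-1-like were close, and at 1000 bp the numbers were 5, 10 and 7, against 53.0% and 75.8% of the other regions.

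**Figure D3:**
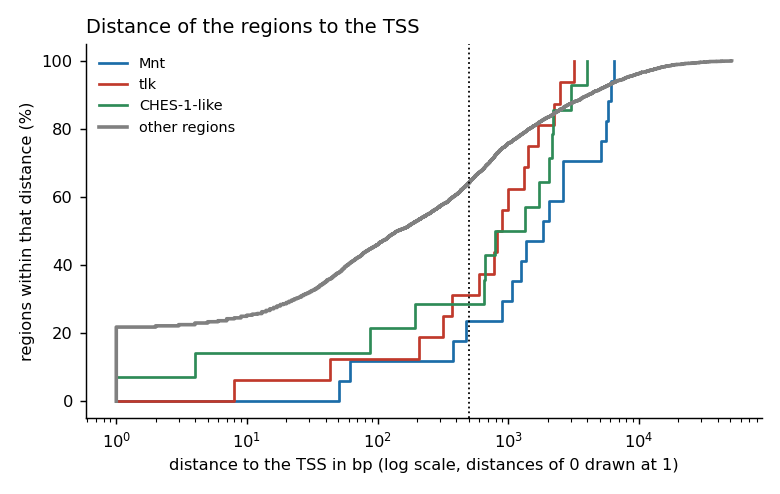
The share of regions in percent that lie within a given distance of the TSS is plotted against that distance in bp (log scale) for Mnt, tlk, CHES-1-like and the other regions, with a dotted line at 500 bp. The lines of the 3 loci run below that of the other regions at 500 bp, where 64.1% of the others and 27.7% of the 47 are reached, and end by 6440 bp.

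Genes with many regions had fewer of them near a start throughout the table. Without the 3 loci, the share within 500 bp was 81.4% for genes with 1 region, 66.7% for 2, 52.9% for 3 to 4, 39.6% for 5 to 9, and 31.4% for the 6 genes with 10 or more. The 27.7% at the 3 loci stands close to that last value. In those 6 genes the share for each ranged between 18.2% at tara and 46.2% at Pdp1.

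Scores at the 3 loci were higher than in the table at large. The median CRTC score was 7.97 at Mnt (range 2.16 to 26.7), 9.68 at tlk (2.96 to 35.5) and 7.997 at CHES-1-like (2.49 to 16.4), and 8.31 over the 47, against 4.66 for the other regions and 5.18 for the others on chromosome X. The median CREB score was 7.62 at Mnt (3.47 to 24.4), 8.28 at tlk (1.81 to 27.8) and 9.32 at CHES-1-like (2.73 to 25.5), against 4.59 for the other regions. Of the 47, 15 (31.9%) were in the upper 10% of the CRTC list, namely 4 at Mnt, 6 at tlk and 5 at CHES-1-like, against 11.6% of the other regions. For CREB, 18 (38.3%) were in the upper 10%, 6 at each locus, against 14.1%. The false discovery rate for CRTC was listed at 0 for 6 regions of Mnt, 9 of tlk and 5 of CHES-1-like, together 42.6%, against 17.9%, and its highest value at the 3 loci was 0.00784. Lower scores were present too, since 34 of the 47 (72.3%) were above the median of the CRTC list and 13 were not.

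This also moved with the number of regions. The median CRTC score was 4.05 for genes with 1 region, 4.67 for 2, 5.13 for 3 to 4, 5.49 for 5 to 9 and 6.56 for the 6 other genes with 10 or more. In that last group 24.3% of the regions were in the upper 10% of the CRTC list. Gene by gene, the median CRTC score was 4.23 at Eip75B, 5.18 at Pdp1, 6.57 at ftz-f1, 8.56 at tara, 10.1 at bun and 12.6 at Eip74EF. The medians of Mnt, tlk and CHES-1-like fall inside that range. The median CREB score rose as well, from 4.11 for genes with 1 region to 6.15 for the 6 other genes with 10 or more. Among those 6 genes it ranged from 4.39 at ftz-f1 to 11.7 at Eip74EF, which also takes in the CREB medians of the 3 loci. Eip75B, Eip74EF and ftz-f1 are ecdysone-linked transcription factors, and Pdp1 is a basic leucine zipper factor of the circadian clock. The density of a gene's own regions was 7.23 per 10 kb at Mnt and 7.27 at CHES-1-like, against 4.21 at tara, 3.29 at Pdp1 and between 1.29 and 2.26 at the other 4. At tlk it was 2.64, so that only Mnt and CHES-1-like of the 3 lay above all 6 of these genes.

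**Figure D4:**
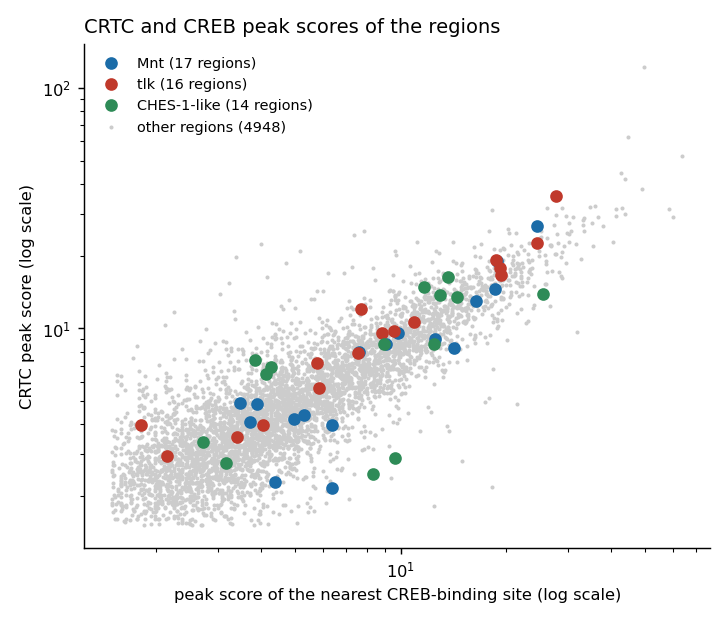
Each point is a region, with the peak score of its nearest CREB-binding site on the horizontal axis and its CRTC peak score on the vertical axis (both log scale), for Mnt, tlk, CHES-1-like and the 4948 other regions. The coloured points follow the grey cloud, the highest is the tlk region at 27.8 and 35.5, and CHES-1-like points at CREB scores of 8.33 and 9.65 lie low at CRTC scores of 2.49 and 2.90.

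CREB and CRTC scores went together within each locus. Across regions, Spearman's rho was 0.82 at Mnt (n = 17), 0.95 at tlk (n = 16), 0.74 at CHES-1-like (n = 14) and 0.85 over the 47, beside 0.82 for the other regions. Regions are not replicates, and both lists were called against the same input library. By definition the 2 sites of a region lie within 200 bp, so their closeness was partly fixed in advance. Of the 47 regions, 43 (91.5%) shared at least 1 bp with their CREB-binding site, against 90.3% of the others. The centres of the 2 sites were 18.5 bp apart at the median, against 22.0 bp. The regions had a median width of 121 bp, against 105 bp.

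Single regions departed from that relation. At CHES-1-like, region 1 had a CREB score of 8.33 with a CRTC score of 2.49, and region 8 had 9.65 with 2.90. These CREB scores stand above 83.4% and 87.1% of the CREB list, while both CRTC scores are below the median of theirs. Region 15 of Mnt had a CREB score above 75.4% and a CRTC score above 9.80% of the lists. That CREB-binding site, however, overlaps region 14 and not region 15. Region 13 of Mnt overlaps its CREB-binding site, and had a CREB score above 59.6% and a CRTC score above 12.5% of the lists. The reverse was seen at region 1 of tlk, with a CRTC score above 46.6% of its list and a CREB score above 8.41% of its own, and at region 7 of CHES-1-like, where CRTC scored 7.39 and CREB 3.83.

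The median CRTC score was higher near a start than beyond at Mnt and CHES-1-like, and lower at tlk. At Mnt the median CRTC score was 8.45 for regions within 500 bp and 4.91 beyond. At CHES-1-like it was 13.7 within 500 bp and 6.69 beyond. At tlk the order was the other way round, 7.87 within 500 bp and 9.78 beyond. The other regions had 4.46 and 4.99. With 4 or 5 regions near a start per locus, these medians rest on few values.

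**Figure D5:**
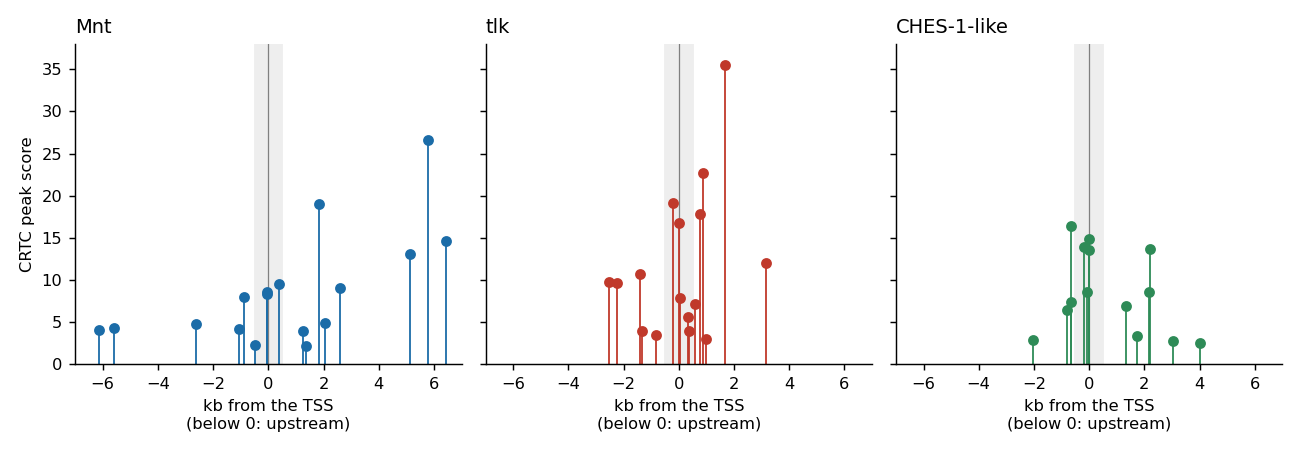
For each locus the CRTC peak score of every region is drawn at its signed distance from the TSS in kb, with upstream distances below 0 and the 500 bp on either side shaded. The highest regions of Mnt and tlk, at scores of 26.7 and 35.5, stand outside the shaded band, and CHES-1-like has 4 regions inside it.

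Regions of other genes stand inside 2 of the 3 spans. Within tlk, 2 regions are assigned to mir-4962, a microRNA gene that RefSeq places inside tlk (Release 6 annotation, used for names and neighbours only). The first (3671314 to 3671462) has a distance of 0 and had a CREB score of 60.1, rank 2 of all 7243 CREB-binding sites, with a CRTC score of 29.0, rank 21. It is higher in CREB score than every one of the 47 regions, and in CRTC score it is below only region 7 of tlk among them. The second (3672167 to 3672288) had scores of 4.46 for CREB and 3.23 for CRTC. Within CHES-1-like, 2 regions are assigned to CG43287, which RefSeq lists as the long noncoding RNA lncRNA:CR43287. Their CRTC scores were 11.0 (7600781 to 7600948) and 9.15 (7601199 to 7601363), and their CREB scores were 16.2 and 9.12. These 4 regions would raise the numbers within the spans to 18 for tlk and 16 for CHES-1-like. They would also change the clusters given above, which skip them. The mir-4962 regions lie between regions 11 and 12 of tlk, and with them no gap from region 10 to region 16 would exceed 1000 bp. The CG43287 regions would join the cluster of regions 11 and 12 of CHES-1-like. The files do not say which transcript any region acts on.

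Sites of 1 protein alone were few inside the spans, except for CRTC at CHES-1-like. CREB-binding sites with no CRTC-binding site within 200 bp were 2 of 19 at Mnt, 2 of 20 at tlk and 1 of 16 at CHES-1-like, against 30.1% of the whole CREB list. CRTC-binding sites without such a CREB partner were 1 of 18 at Mnt, 2 of 20 at tlk and 5 of 21 at CHES-1-like (23.8%), against 16.6% of the whole CRTC list. The spans were drawn around paired regions, so the shares are only a description.

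Genes related to the 3 loci were looked up in the table. Over all 13962 protein-coding genes of RefSeq, 2712 (19.4%) matched a gene with a region, by symbol or synonym, and the counts in the lists were not tested against that share. Mnt and CHES-1-like, chosen for their regions, are counted in their own lists. In the Myc and Max network, 3 of 5 genes had a region: Mnt with 17, dm, the Myc gene of flies, with 2 at CRTC scores of 4.89 and 6.66, and Mondo (listed as Mio), a glucose-responsive relative, with 2 at 2.88 and 3.93. Max, the shared partner, and bigmax had none. Mnt has the most regions of any gene in the table, so no other member of the network could have matched its number. The regions of dm (3266940 to 3271891) are also on chromosome X.

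Among 12 histone H3-H4 chaperone and checkpoint genes around tlk, 3 had a region. These were grp, the Chk1 checkpoint kinase, with 3 regions and a CRTC score of up to 14.01, DLP, a relative of the chaperone Daxx, with 2, and the chromatin remodeller XNP with 1. The other 9 had none, among them the Tlk substrate gene asf1, the Caf1 subunit genes, Hira and mei-41. Of 18 forkhead genes, 7 had a region. After CHES-1-like came foxo and jumu with 4 each, croc with 2, and slp1, slp2 and fd68A with 1 each. The highest CRTC score in this family outside CHES-1-like was 15.3, at foxo, the forkhead factor of insulin signalling, and the 2 regions of croc had 12.0 and 14.2. The other forkhead genes had none.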

How the data were processed

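CREB and CRTC ChIP-seq of MB nuclei was done in 12 libraries, 3 per protein and condition, with 1 input library. Per the study's methods, the authors mapped paired-end MiSeq reads to dm3 with CLC Genomics Workbench, dropped read pairs over 500 bp apart or with a mapping quality under 8, and used PICS and ERD in Strand NGS to call peaks over the input. Sites found in at least 2 of 3 replicates were kept. The score of each site and its false discovery rate (q-value) come from the authors' peak caller, as deposited. The distance to the TSS was given by the authors in bp in the deposited table. The read depth behind a site is unknown and no per-library value was used. A further 4 columns of the table hold fold changes and adjusted p-values of spaced-trained against naive flies for each protein, and they were not used here.

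Positions, spacing, scores and distances were computed with Python 3.11.15, NumPy 2.4.6 and pandas 2.3.3 and plotted with Matplotlib 3.10.9. The nearest CREB-binding site was that of the largest overlap, then of the smallest gap. Implied starts were joined within 2 bp. Tools were tested on simulated data. No test was run, since the loci were chosen from the same calls. Genes named are the 3 loci, the genes with the next most regions, genes with regions beside or within the loci, and 3 gene lists. Members and lists were chosen with earlier results of these data known. Names and neighbours came from RefSeq Release 6, which matched 2779 of the 2833 gene names of the table and whose coordinates were not used. There fd85E and FoxP are 1 gene and were counted once. Sequences of the regions and promoters were not analysed here.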

Additional observations from a re-analysis of the deposited data

Results flagged for a closer look

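Inside the 3 spans, 13 binding sites belonged to no CREB/CRTC region, since no site of the other protein lay within 200 bp. They are listed because the comparisons above do not use them. At Mnt there were CREB-binding sites at 3569817 to 3569857 (score 5.15) and 3574147 to 3574210 (2.84), and a CRTC-binding site at 3579008 to 3579108 (2.28). At tlk there were CREB-binding sites at 3637432 to 3637455 (3.87) and 3637842 to 3637931 (3.60), and CRTC-binding sites at 3634134 to 3634195 (4.97) and 3669279 to 3669343 (2.08). The first of these tlk sites missed the limit narrowly, at 216 bp from the nearest CRTC-binding site.

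At CHES-1-like there was 1 CREB-binding site, at 7600270 to 7600316 (score 2.70), and there were 5 CRTC-binding sites. The first was at 7588347 to 7588416 (3.64). The other 4 followed each other at 7589691 to 7589806 (4.10), 7589969 to 7590079 (2.90), 7590191 to 7590293 (4.67) and 7590307 to 7590337 (5.38). They lie between regions 5 and 6 of the locus. In the whole CRTC list, sites without a CREB partner formed 2 runs of 4 at gaps of at most 1000 bp, of which this is 1, beside 8 runs of 3, 88 of 2 and 787 single sites. The median score of such sites was 2.80 for CRTC and 2.46 for CREB.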

How the results depend on the processing

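Of 48 values under alternative settings, 39 stayed within 1.5 times the count given above or, for medians, within 1 SD over the regions or gaps of the locus, and 9 counts did not. An SD over single regions or gaps is wide beside the change of a median, so that limit could hardly be passed. Among the 39, Mnt had 13 clusters at a largest gap of 500 bp, and the median CRTC score of CHES-1-like was 11.1 over regions at least 100 bp wide. Regions at least 100 bp wide numbered 9 at Mnt and 8 at CHES-1-like, against 17 and 14 in all. With neighbours joined up to 2000 bp, Mnt had 5 clusters and CHES-1-like 3, and with 500 bp CHES-1-like had 11, against 9 and 7. A TSS limit of 200 bp left 2 regions at Mnt and 2 at tlk, against 4 and 5, and a limit of 1000 bp gave 10 at tlk and 7 at CHES-1-like, against 5 and 4. No paired analysis was possible because each site list combines replicates and gives 1 value per site, and for the same reason no replicate could be left out. What depth limits could not be measured from the lists.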
